A study of Mus musculus with 3 samples.

Results

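The mitochondrial ribosomal protein genes are the nuclear genes that encode the protein subunits of the ribosome inside mitochondria. They were taken as every gene of the count table whose symbol is Mrpl or Mrps followed by a digit, with symbols of pseudogenes left out, which gave 78 of 18029 genes. All 78 passed the filter on low counts in CD4+ and in CD8+ T cells. By known role, 51 belong to the large subunit of the mitochondrial ribosome, of which 30 have a bacterial homologue and 21 are specific to mitochondria, and 26 belong to the small subunit, of which 16 have a bacterial homologue and 10 are specific to mitochondria. The remaining gene, Mrps36, was first named as a ribosomal protein and is now known as a component of the oxoglutarate dehydrogenase complex.

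The mitochondrial ribosome translates the mRNAs of the mitochondrial genome, all of which encode core subunits of the respiratory chain and the ATP synthase. Its RNAs are transcribed inside mitochondria, whereas its proteins are made in the cytosol and imported, so that nuclear and mitochondrial gene expression have to be matched. T cells enlarge their mitochondria and raise mitochondrial translation when they are activated, and blocking that translation is known to limit their proliferation and cytokine production. Cyclosporine A (CSA) inhibits calcineurin, the phosphatase that activates NFAT transcription factors downstream of the T cell receptor.

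Splenic donor T cells were studied 7 days after allogeneic bone marrow transplantation (BMT). Recipients were irradiated B6D2F1 mice grafted with B6 bone marrow and B6 T cells, together with CD45.1+ T cells of TEa TCR-transgenic mice (Rag1-/- background), which recognize a host-derived peptide, and the saline controls carried the same graft. From day 0 to day 6 they received daily injections of saline or of CSA, the latter at either 5 or 50 mg/kg. Each group had 6 mice, pooled by 2 into 3 hashtagged pools. The age of the mice is not given in the sources used here. Sorted CD4+ and CD8+ T cells of the 3 pools of a group were mixed at equal numbers and captured together, so that each treatment is 1 droplet capture and the effect of the treatment and of its capture cannot be told apart. P-values therefore measure the spread between pools of 1 capture.

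Per pool, the files held 3994968 to 7592334 unique molecular identifiers (UMIs) in CD4+ and 4392100 to 11454636 UMIs in CD8+ T cells. The median number of UMIs per cell was 3097 in saline, 4396 under the low and 5980 under the high dose in CD4+ T cells, and 4108, 6122 and 7183 in CD8+ T cells. No CD8+ cell held a UMI of Cd4 and no CD4+ cell held one of Cd8a. Summed CPM are UMIs relative to the pool's total, here without TMM scaling. The other CD8 marker, Cd8b1, was found in CD4+ pools, at 141 to 153 CPM in saline, 86.3 to 95.7 CPM at 5 mg/kg and 20.8 to 25.8 CPM at 50 mg/kg. Summed markers of regulatory T cells (3 of 3 in the table, none at 0) went from 224 to 234 CPM in saline to 59.7 to 61.2 CPM at 50 mg/kg in CD4+ pools and from 125 to 130 CPM to 28.6 to 34.5 CPM in CD8+ pools, and the part of both in the results was not tested. The summed CPM of 4 cycling markers lay between 1655 and 1814 in the saline CD4+ pools against 1074 to 1162 at 50 mg/kg, and between 2645 and 2821 against 1022 to 1247 in CD8+ pools. All 4 were detected in each group, and their part in the results below was tested only by leaving out the clusters the study calls cycling. Summed erythroid markers (5 of 5 in the table, none at 0) were between 3.21 and 14.5 CPM in saline and between 27.7 and 36.6 CPM at 50 mg/kg in CD4+ pools, and between 3.89 and 17.6 against 23.7 to 48.1 CPM in CD8+ pools, and their part was not tested. Among the cells, 436 carried a barcode that also occurred in another capture. CPM of single genes in the comparisons that follow were scaled by TMM.

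Both doses of CSA went with a larger share of UMIs from the 78 genes in both lineages. Together the genes made up 0.560%, 0.558% and 0.557% of all UMIs in the 3 saline pools of CD4+ T cells, 0.653%, 0.677% and 0.675% in the pools given 5 mg/kg, and 0.709%, 0.706% and 0.709% in those given 50 mg/kg. CD8+ T cells had shares of 0.548%, 0.545% and 0.555% in saline, 0.716%, 0.716% and 0.700% at 5 mg/kg, and 0.738%, 0.723% and 0.731% at 50 mg/kg. Each treated pool lay above each saline pool, and the pools of the 2 doses did not overlap in either lineage.

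The mean share was 1.20 times the saline share under the low and 1.27 times under the high dose in CD4+ T cells, and 1.29 and 1.33 times in CD8+ T cells. The number of UMIs of the 78 genes per cell moved further, from 20.6 ± 0.805 (SD, n = 3 pools) in saline to 33.5 ± 2.66 and 48.2 ± 1.98 in CD4+ T cells and from 26.3 ± 0.857 to 49.4 ± 3.73 and 58.6 ± 5.45 in CD8+ T cells, while total UMIs per cell rose as well. In cells of 4000 to 8000 UMIs only, the share was 0.564% in saline and 0.680% at 50 mg/kg in CD4+ T cells, and 0.541% and 0.691% in CD8+ T cells. In summed counts, fewer cells of a type and less RNA per cell cannot be told apart.

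**Figure D1:**
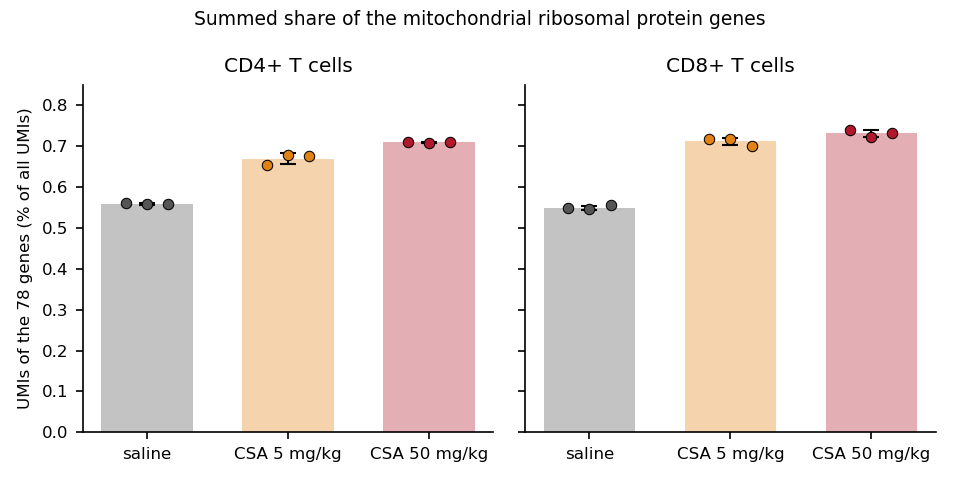
Percent of all UMIs that came from the 78 genes (y axis) in each of the 3 pools per group (points), with the mean (bar) and SD (whiskers), by treatment and lineage. All 6 treated pools of each lineage sit above the saline pools, whose means are 0.558% in CD4+ and 0.549% in CD8+ T cells.

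The 4 structural classes did not rise by the same factor. At 50 mg/kg, proteins of the small subunit with a bacterial homologue rose to 1.33 times their saline share in CD4+ and 1.39 times in CD8+ T cells, the largest ratio of the 4. Small subunit proteins that are specific to mitochondria had the smallest ratio, 1.14 in CD4+ and 1.19 in CD8+ T cells. The large subunit classes lay between them, at 1.28 and 1.24 in CD4+ and at 1.33 and 1.32 in CD8+ T cells for the bacterial and the mitochondria-specific class. These ratios are given as a description, without a test between classes.

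Gene by gene, 71 of the 78 genes rose in CD4+ T cells at 50 mg/kg and none fell, where 34.7% of all genes tested rose and 35.8% fell (edgeR, adjusted p under 0.05 over all genes tested, counts scaled by TMM). Among CD8+ T cells, 72 rose and none fell, against a background of 37.1% and 36.9%. At 5 mg/kg, 67 rose and none fell in CD4+ T cells (26.1% and 25.6% of all genes), and 68 rose and none fell in CD8+ T cells (29.9% and 30.3%). At an unadjusted p under 0.05 in edgeR, 0 of the 78 were lower in each of these 4 comparisons, and DESeq2 also called 0 lower. The treated pools lay wholly above the saline pools for 67 and 71 of the genes at the 2 doses in CD4+ T cells (28.7% and 35.7% of all genes) and for 72 and 71 in CD8+ T cells (32.5% and 37.5%). The median log2 change of the 78 genes was 0.51 and 0.68 at the 2 doses in CD4+ and 0.71 and 0.84 in CD8+ T cells, where the median over all genes at 50 mg/kg was -0.01 in CD4+ T cells and 0.00 in CD8+ T cells.

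The choice of scaling bears on these counts. Scaled by library size alone, the median of all genes moved to -0.45 in CD4+ and -0.53 in CD8+ T cells at 50 mg/kg. Under that scaling 45 genes rose and 9 fell in CD4+ and 52 rose and 10 fell in CD8+ T cells, with member medians of 0.24 and 0.30. At 5 mg/kg the counts were 37 and 7 in CD4+ and 47 and 8 in CD8+ T cells, where the median of all genes was -0.37 and -0.43. The shares of all genes called under library size scaling are not given here, so these counts stand without that background. Such a change of scaling moves all genes of a comparison by nearly the same amount. The distance of the members from the median of all genes is thus nearly fixed and is not a separate check.

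**Figure D2:**
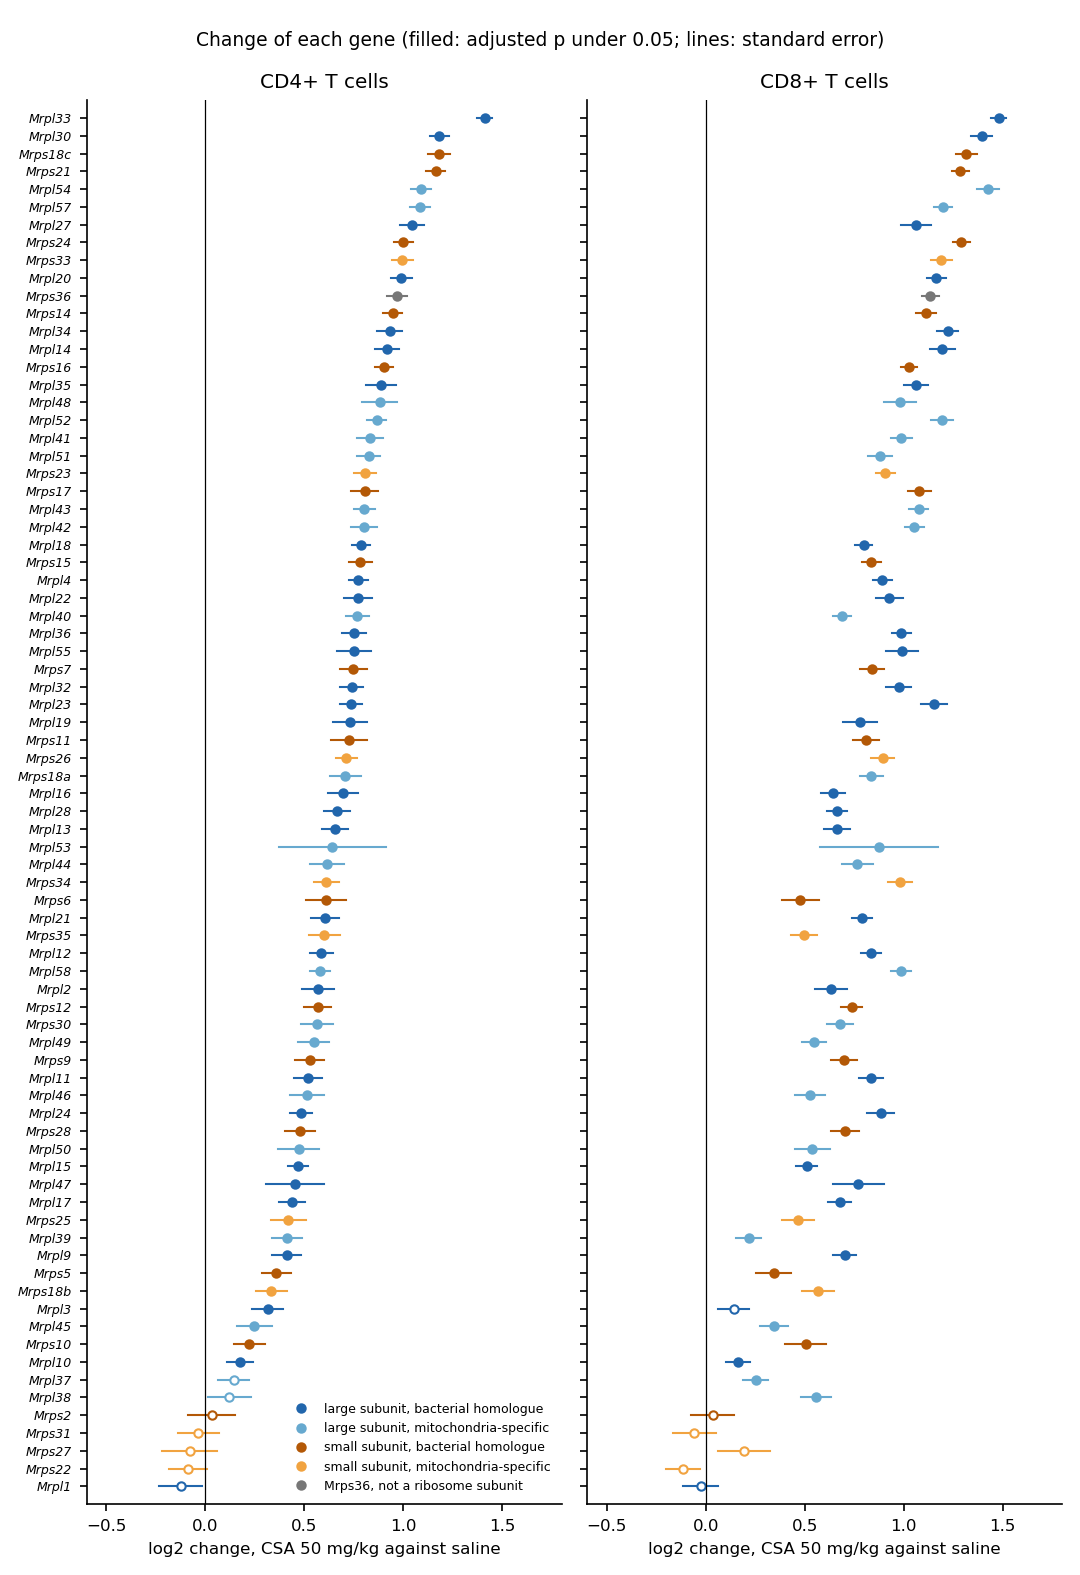
Log2 change at 50 mg/kg against saline (x axis) for each of the 78 genes (rows, ordered by the change in CD4+ T cells), coloured by structural class, with 1 standard error on each side; filled points passed an adjusted p of 0.05. In both panels the points lie to the right of 0 except for a few open ones near it, and Mrpl33 is at the top at 1.41 and 1.48.

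The largest rises came from genes of both subunits. Mrpl33, a large subunit protein kept from bacteria, had the largest rise in both lineages and also the most UMIs of the 78. It measured 168, 172 and 171 CPM in the saline pools of CD4+ T cells, 335, 350 and 357 at 5 mg/kg, and 453, 457 and 449 at 50 mg/kg. CD8+ T cells gave 153, 150 and 153 CPM, then 379, 374 and 367, then 430, 425 and 418. The 3 groups did not overlap in either lineage, and the log2 change at 50 mg/kg was 1.41 ± 0.04 (SE, adjusted p = 2.3e-17) in CD4+ and 1.48 ± 0.04 (adjusted p = 6.2e-16) in CD8+ T cells.

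Mrpl30, another large subunit protein with a bacterial homologue, measured 108, 101 and 95.9 CPM in saline, 186, 181 and 184 at 5 mg/kg and 228, 227 and 235 at 50 mg/kg in CD4+ T cells. The CD8+ values were 87.7, 102 and 101, then 210, 195 and 199, then 262, 248 and 256 CPM. Its level stepped up at each dose with no overlap of pools, by a log2 of 1.18 ± 0.05 and 1.39 ± 0.05 at 50 mg/kg. Mrps18c, 1 of 3 mammalian relatives of the bacterial protein S18, rose from 62.0, 66.4 and 66.2 to 145, 150 and 148 CPM in CD4+ T cells (log2 change 1.18 ± 0.06) and from 63.4, 60.4 and 66.7 to 160, 161 and 154 CPM in CD8+ T cells (1.32 ± 0.05).

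Mrps21, a small subunit protein with a bacterial homologue, stood at overlapping levels at both doses. In CD4+ T cells it measured 117, 123 and 118 CPM in saline, 252, 266 and 277 at 5 mg/kg and 274, 258 and 271 at 50 mg/kg. CD8+ T cells gave 111, 104 and 105, then 266, 266 and 262, then 264, 260 and 258 CPM. The difference between the doses was 0.01 ± 0.04 and -0.02 ± 0.04 on the log2 scale, neither past the threshold.

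Mrpl54 and Mrpl57, mitochondria-specific proteins of the large subunit, and Mrps24, a small subunit protein related to bacterial S3, complete the genes with the largest rises. Mrpl54 went from 88.0, 84.7 and 88.8 to 184, 181 and 191 CPM in CD4+ T cells and from 81.4, 86.5 and 92.8 to 233, 223 and 244 CPM in CD8+ T cells at 50 mg/kg. Mrpl57 had log2 changes of 1.09 ± 0.05 and 1.20 ± 0.04, and Mrps24 of 1.00 ± 0.05 and 1.29 ± 0.04. Treated pools of all 3 genes lay above all saline pools.

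Of the other genes with the most UMIs, Mrps16 of the small subunit rose by 0.90 ± 0.04 in CD4+ and 1.03 ± 0.04 in CD8+ T cells, and Mrpl18, whose bacterial homologue binds the 5S rRNA, by 0.79 ± 0.05 and 0.80 ± 0.04. In CD4+ T cells Mrps16 stood at 150, 150 and 146 CPM in saline and at 280, 278 and 276 CPM at 50 mg/kg. The pools of the groups did not overlap for either gene.

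At 50 against 5 mg/kg, 32 of the 78 genes rose further in CD4+ T cells (background 19.9%) and 36 in CD8+ T cells (20.0%), and 25 of them did so in both lineages. A single gene was lower at the high dose, in both lineages, where 21.3% and 21.0% of all genes were lower. Under library size scaling the counts were 21 higher and 3 lower in CD4+ and 15 higher and 9 lower in CD8+ T cells. The median of all genes was then -0.09 and -0.11. In cells of 4000 to 8000 UMIs the member counts were 8 and 3 in CD4+ and 22 and 1 in CD8+ T cells. Without the cycling clusters they were 29 and 2, and 19 and 2. The shares of all genes called in these settings are not given here. The gene lower at the high dose under TMM scaling was Mrpl52, a mitochondria-specific protein of the large subunit. It is described here because of this value and not by the rule for named genes.

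Mrpl52 measured 119, 125 and 113 CPM in saline, 314, 315 and 331 at 5 mg/kg and 210, 216 and 223 at 50 mg/kg in CD4+ T cells. The CD8+ pools gave 88.9, 86.3 and 94.4, then 281, 271 and 265, then 208, 189 and 218 CPM. The pools at 5 mg/kg were the highest of the 3 groups in both lineages, with no overlap. The log2 change at 5 mg/kg, 1.43 ± 0.05 in CD4+ and 1.60 ± 0.06 in CD8+ T cells, exceeded that of Mrpl33, and the step from 5 to 50 mg/kg was -0.56 ± 0.05 (adjusted p = 2.6e-09) and -0.41 ± 0.05 (adjusted p = 8.1e-06). Its transcript of 418 bases is the shortest annotated among the 78.

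Genes with known special roles in the ribosome moved by different amounts. Mrpl12 and Mrpl10 build the stalk that recruits translation factors, and Mrpl11 forms its base. Mrpl12 rose from 90.7, 98.3 and 85.8 to 142, 142 and 130 CPM in CD4+ T cells and from 84.3, 87.5 and 85.3 to 158, 159 and 143 CPM in CD8+ T cells. Mrpl11 rose by 0.52 ± 0.07 and 0.84 ± 0.06 on the log2 scale. Mrpl10 changed least of the 3, from 58.6, 56.8 and 57.1 to 60.3, 67.3 and 66.9 CPM in CD4+ T cells, a log2 change of 0.18 ± 0.07 (adjusted p = 0.022) that turned to -0.26 when counts were scaled by library size alone. Its change in CD8+ T cells was 0.16 ± 0.06 (adjusted p = 0.022), the pools overlapped, and the change likewise turned, to -0.37.

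Mrps12, which lies in the decoding centre of the small subunit, rose by 0.57 ± 0.07 in CD4+ and 0.74 ± 0.05 in CD8+ T cells and did not differ between the doses beyond the threshold. Mrpl45 anchors the ribosome to the inner membrane near the exit of the peptide tunnel. It rose by 0.25 ± 0.09 (adjusted p = 0.016) and 0.35 ± 0.07 (adjusted p = 0.00027) and turned to -0.19 in both lineages under library size scaling. Mrpl58, a peptidyl-tRNA hydrolase that became part of the large subunit, rose by 0.58 ± 0.05 and 0.99 ± 0.05.

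The 3 relatives of bacterial S18 differed among themselves. Mrps18c rose by 1.18 in CD4+ T cells, as given above, Mrps18a by 0.71 ± 0.08, and Mrps18b by 0.33 ± 0.08 (adjusted p = 0.0008). The order was the same in CD8+ T cells, at 1.32, 0.84 ± 0.06 and 0.57 ± 0.08. Mrps18b turned to -0.11 in CD4+ T cells under library size scaling. Mrps36, the subunit of oxoglutarate dehydrogenase, rose from 70.4, 72.8 and 70.1 to 138, 138 and 142 CPM in CD4+ and from 81.4, 80.8 and 81.7 to 178, 175 and 182 CPM in CD8+ T cells.

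A total of 5 genes were called in neither lineage at 50 mg/kg, and they are named because they are so few: Mrpl1, Mrps2, Mrps22, Mrps27 and Mrps31. Mrpl1 and Mrps2 have bacterial homologues, while Mrps22, Mrps27 and Mrps31 belong to the mitochondria-specific part of the small subunit. Mrps22 measured 22.4, 25.5 and 24.9 CPM in saline and 24.1, 21.5 and 23.3 CPM at 50 mg/kg in CD4+ T cells, and 26.3, 24.6 and 24.7 against 24.8, 23.6 and 21.7 CPM in CD8+ T cells. The pools of the groups overlapped in both lineages. Mrpl1 had log2 changes of -0.13 ± 0.11 and -0.03 ± 0.09, Mrps2 of 0.03 ± 0.12 and 0.03 ± 0.11, Mrps27 of -0.08 ± 0.14 and 0.19 ± 0.13, and Mrps31 of -0.04 ± 0.10 and -0.06 ± 0.11. Missing the threshold does not show that these genes were level. Beyond them, Mrpl3 was called in CD4+ T cells only and Mrpl37 and Mrpl38 in CD8+ T cells only, and 70 genes rose in both.

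The change was larger in CD8+ than in CD4+ T cells for 17 of the 78 genes and smaller for none, where 9.33% of all genes had a more positive and 10.4% a more negative change in CD8+ T cells (edgeR, lineage by treatment term at 50 mg/kg). At an unadjusted p under 0.05 in edgeR, 27 were more positive and 1 more negative, and DESeq2 called 0 more negative. The count of 17 became 2 with DESeq2 and 2 without the clusters the study calls cycling. The largest difference was in Mrpl38, a mitochondria-specific protein of the large subunit. It stood at 28.5, 23.9 and 23.5 CPM in saline and at 27.0, 27.0 and 27.6 CPM at 50 mg/kg in CD4+ T cells, where the pools overlapped. The CD8+ pools stood at 24.3, 25.7 and 22.8 against 34.7, 36.1 and 36.4 CPM, with no overlap, and the difference of the changes was 0.41 ± 0.13 (adjusted p = 0.021).

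Mrpl23 and Mrpl24, which have bacterial homologues near the peptide exit, differed by 0.39 ± 0.08 and 0.37 ± 0.08, and both were lower in CD8+ than in CD4+ T cells in saline. Mrpl23 measured a mean of 79.6 CPM in saline CD4+ and 62.9 CPM in saline CD8+ T cells, and its pools at 50 mg/kg lay at 128, 136 and 135 CPM and at 141, 129 and 148 CPM, which overlapped. Mrps34, of the mitochondria-specific small subunit, followed the same pattern, with 64.8 and 45.1 CPM in saline and a difference of 0.34 ± 0.09 in the change. Mrpl58 differed by 0.38 ± 0.07 and Mrpl54 by 0.31 ± 0.07, and neither passed the threshold between the lineages in saline. Over all 78 genes, 7 were higher and 6 lower in CD8+ than in CD4+ T cells in saline, against 21.5% and 18.9% of all genes.

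Within clusters, the change of the 78 genes was large in some T cell states and small in others. Clusters carry the names the study gave them, and the comparison between clusters is a description. In CD4+ T cells, the Cd226hi effector cluster C0 rose from 0.506%, 0.513% and 0.510% of UMIs in saline to 0.538%, 0.602% and 0.597% at 5 mg/kg and 0.655%, 0.643% and 0.680% at 50 mg/kg. The Cd226lo effector cluster C1 started higher and moved little, from 0.669%, 0.645% and 0.672% to 0.670%, 0.685% and 0.684% at 50 mg/kg. At the high dose the C0 and C1 means, 0.659% and 0.680%, were thus closer than in saline, where they were 0.510% and 0.662%.

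The genes were then tested within each cluster (edgeR, sums per pool). The scaling bears on these counts too. By library size alone, C0 had 25 genes higher and 4 lower at 50 mg/kg, where 924 rose and 3822 fell of all 7664 genes tested. C1 had 1 and 2, where 377 rose and 1057 fell of all 7035. C2 had 3 and 6, where 424 rose and 1233 fell of all 6848. The member median in C2 turned to -0.059, and the median of all genes there was -0.18. Library size scaling gave 4 and 2 in C3 (all genes: 332 and 1141 of 7889) and 1 and 0 in C4 (175 and 355 of 2558). It gave 25 and 1 in C5 (691 and 2684 of 5958) and 14 and 2 in C7 (504 and 1901 of 5698). Clusters C8, C9 and C10 had 9 and 0 (284 and 1170 of 4064), 0 and 1 (108 and 382 of 1778), and 2 and 1 (170 and 444 of 1728). The counts below are under TMM scaling. In C0, 58 of 76 genes tested rose at 50 mg/kg and none fell (background 26.6% and 28.2%), with a median log2 change of 0.70, and 0 were lower at an unadjusted p under 0.05. In C1, 5 of 75 rose and none fell (9.38% and 10.9%), a share below that of all genes, with a median of 0.11, and 3 were lower at an unadjusted p under 0.05. In the Tcf7hi precursor-like cluster C2, 6 of 76 rose and 1 fell (11.6% and 11%), and its share went from 0.642% ± 0.00814 (SD, n = 3) to 0.624% ± 0.0165. The cytotoxic cluster C7 had the largest share of the CD4+ clusters at 50 mg/kg, 0.842% against 0.676% in saline, with 36 of 76 genes higher and none lower (18.2% and 18.4%, with 0 lower at an unadjusted p). In the cycling effector cluster C5, 51 of 74 rose and 1 fell (26.6% and 27.3%).

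The other CD4+ clusters tested are given next. Clusters C11 and C12 had 1 saline pool of at least 10 cells each and were not tested. In the cycling Cd226lo cluster C3, which already held 0.716% in saline, 11 of 77 genes rose and none fell (8.89% and 8.86%), and its share at 50 mg/kg was 0.756%. The Fcer1ghi cluster C8 went from 0.558% to 0.716%, with 22 of 61 genes higher and none lower (16.0% and 18.1%). Follicular helper cluster C4 had 4 of 19 genes higher and none lower (10.2% and 8.48%) on 45 treated cells, whose pools spread from 0.473% to 0.644%. At 5 mg/kg its share was lower than in saline, at 0.412%, 0.461% and 0.417% against 0.472%, 0.472% and 0.478% with no overlap, in cells of 1561 to 1650 UMIs against 2541 to 2727, and the part of that depth was not tested. Of 19 genes tested there 0 were called by edgeR (5.16% of all genes rose and 2.58% fell), and 1 was higher and 0 lower at an unadjusted p under 0.05. The naive cluster C9 had 3 of 30 higher and none lower (11.2% and 15.4%), and the Isg15hi cluster C10 had 6 of 24 higher and none lower (17.9% and 18.2%). At an unadjusted p under 0.05, 1 member was lower in each of C3, C4, C9 and C10 and 0 in C8.

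Like C4, the cycling Cd226hi cluster C6 had a lower share at the low dose. Its share was 0.485%, 0.458% and 0.473% in saline and 0.369%, 0.419% and 0.420% at 5 mg/kg. Of 53 genes tested, 1 rose and 3 fell (6.23% and 5.60%). At an unadjusted p under 0.05 in edgeR, 1 was higher and 11 lower. A positive change was found in 15 of the 53, with a median log2 change of -0.26. C6 cells also held fewer UMIs, 2975 to 3525 per cell at 5 mg/kg against 5815 to 6548 in saline. The part of that depth was not tested. At 50 mg/kg only 27 cells in 2 pools were left, and 0 of 53 members were called (1.64% and 1.24% of all genes), with 0 higher and 1 lower at an unadjusted p under 0.05 in edgeR.

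In CD8+ T cells the clusters also differed. Library size scaling gave 32 higher and 6 lower in C0 (all genes: 927 and 4580 of 7919) and 4 and 3 in C1 (386 and 1600 of 7011). It gave 30 and 2 in C2 (1010 and 4486 of 9386) and 33 and 4 in C3 (962 and 4171 of 8034). Clusters C5 and C6 had 16 and 1 (505 and 2387 of 6654) and 12 and 0 (377 and 1713 of 4877). C8 had 16 and 1 (397 and 1769 of 4775), and C7 had none (47 and 77 of 3357). The values that follow are under TMM scaling. Cd226hi cluster C0 rose from 0.486%, 0.483% and 0.492% in saline to 0.632%, 0.619% and 0.615% at 5 mg/kg and 0.661%, 0.666% and 0.655% at 50 mg/kg, and 58 of 76 genes rose (background 28.1%) with none lower (30.3%), or 1 lower at an unadjusted p under 0.05. Cd226lo cluster C1 held 0.671% ± 0.0174 in saline and 0.689% ± 0.00558 at 50 mg/kg (SD, n = 3), with 14 of 76 genes higher (13.4%) and none lower (13.6%), or 1 lower at an unadjusted p. The cycling clusters C2 and C3 had 62 and 66 of 77 genes higher (27.2% and 29.0%) and none lower (27.5% and 30%), with 0 lower at an unadjusted p. The exhausted cluster C8 had 38 of 70 higher (20.0%) and none lower (19.5%), or 1 lower at an unadjusted p. The Tcf7hi cluster C5 went from 0.528% to 0.681%, with 39 of 75 genes higher and none lower (17.1% and 17.7%). The Fcer1ghi cluster C6 had 31 of 70 higher and none lower (18.5% and 19.5%), and in both clusters 0 were lower at an unadjusted p under 0.05.

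The naive CD8+ cluster C7 showed no such step. Its share was 0.649%, 0.672% and 0.666% in saline and 0.647%, 0.653% and 0.634% at 50 mg/kg, so the groups overlapped. Of 59 genes tested 0 were called in either direction by edgeR, and 0 at an unadjusted p under 0.05, where 1.25% of all genes rose and 2.26% fell. The cycling Cd226hi cluster C4 fell in share from 0.462%, 0.464% and 0.465% in saline to 0.366%, 0.388% and 0.435% at 5 mg/kg. It had 1 gene higher and 1 lower of 77 (1.90% and 1.31%). At an unadjusted p under 0.05 in edgeR, 5 were higher and 14 lower. A positive change was found in 21 of the 77, with a median log2 change of -0.21. These values rest on 81 treated cells of 4002 to 6060 UMIs against 6676 to 7076 in saline.

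**Figure D3:**
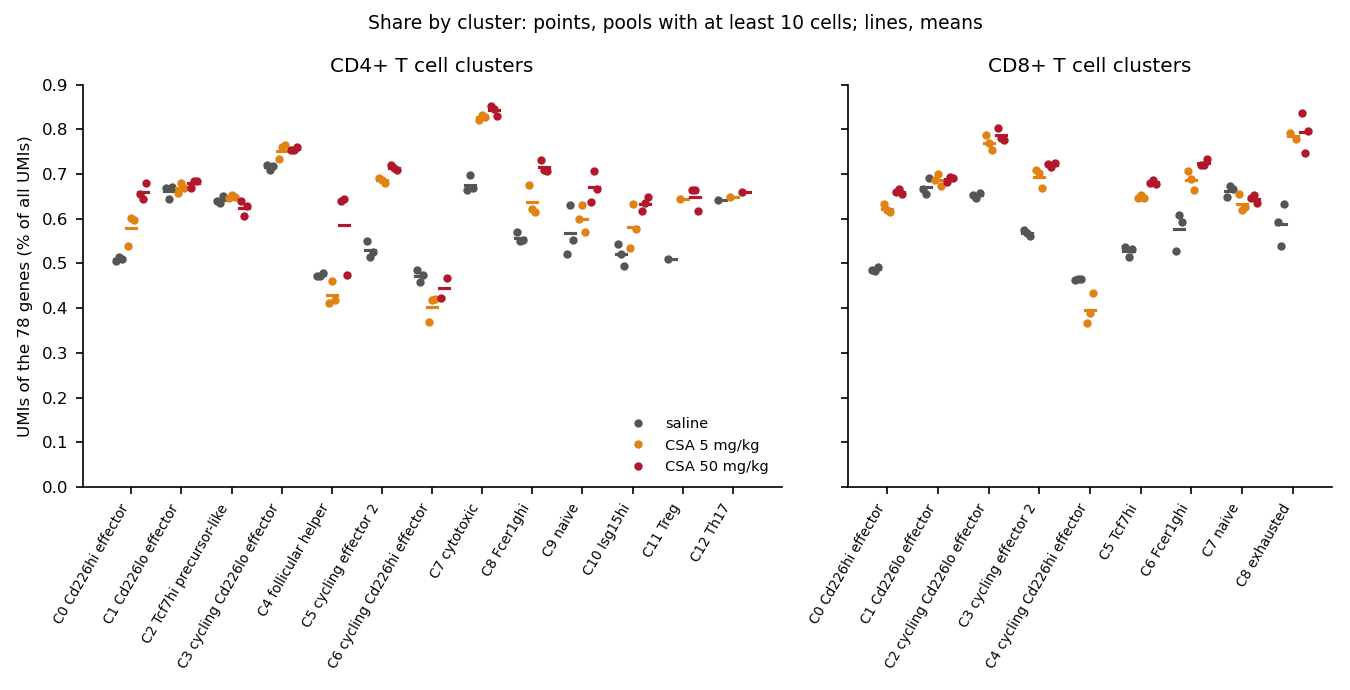
Percent of UMIs from the 78 genes (y axis) in each cluster (x axis) and treatment (colours), with 1 point per pool of at least 10 cells and a line at the mean. The Cd226hi clusters C0 step up with dose from 0.510% and 0.487%, whereas C1 of both lineages and the naive CD8+ cluster C7 stay between 0.618% and 0.700%.

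The share of cytosolic ribosomal protein genes moved in the same clusters, and its part was not tested. That share was 12.1% to 12.6% in the saline pools of CD4+ C0 and 19.4% to 20.5% at 50 mg/kg, against 21.1% to 21.4% and 21.6% to 23.1% in C1. In CD8+ C7 it was 34.7% to 35.5% in saline and 33.2% to 36% at 50 mg/kg. Mrpl33 and Mrpl30 were the members higher in the most CD4+ clusters, 9 of 11, and both were higher in 7 of 8 CD8+ clusters. Mrpl1 and Mrps18b were each lower in 1 CD4+ cluster.

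The make-up of the clusters moved as well. Saline levels of each cluster weighted by the UMIs of the 50 mg/kg group gave 0.623% in CD4+ T cells, between the 0.558% observed in saline and the 0.708% observed at 50 mg/kg. The levels at 50 mg/kg weighted by the saline make-up gave 0.635%. The corresponding values in CD8+ T cells were 0.612% and 0.684%, between 0.549% and 0.731%. Either step taken alone raised the share in both lineages. No least number of cells was set for these sums. At 50 mg/kg CD4+ C6 had 27 cells in its 2 pools of at least 10 cells, and CD8+ C4 had no such pool. Levels of these clusters at 50 mg/kg enter the 0.635% and the 0.684% with their saline weights, so both values rest in part on few cells.

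TEa T cells, which were left out of all sums, gave a small separate reading. The 78 genes made up 0.570% of UMIs in 123 saline cells, 0.682% in 130 cells at 5 mg/kg and 0.700% in 27 cells at 50 mg/kg. By pool the shares were 0.509%, 0.563% and 0.601% in saline, 0.644%, 0.660% and 0.722% at 5 mg/kg, and 0.691%, 0.776% and 0.662% at 50 mg/kg. No treated pool lay below a saline pool.

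The partners of the mitochondrial ribosome did not all move with it. Over all genes tested at 50 mg/kg, 34.7% rose and 35.8% fell in CD4+ and 37.1% rose and 36.9% fell in CD8+ T cells, and the counts of each list stand against these shares. All list counts and changes are under TMM scaling. A further 5 ribosomal proteins carry other names, and 4 of them rose and 1 fell in each lineage at 50 mg/kg. Their summed share of UMIs was 1.13 times the saline share in CD4+ and 1.15 times in CD8+ T cells. Chchd1, of the small subunit, rose by 0.81 ± 0.07 in CD4+ and 1.03 ± 0.05 in CD8+ T cells. Ptcd3, a small subunit protein of the pentatricopeptide repeat family, fell from 28.5, 29.8 and 25.8 to 19.1, 18.2 and 16.3 CPM in CD4+ T cells and from 23.8, 25 and 25.7 to 15, 13.4 and 14.3 CPM in CD8+ T cells. It fell by 0.65 ± 0.10 and by 0.81 ± 0.09 on the log2 scale, with no overlap of pools.

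Of the genes that assemble the ribosome and mature its RNA, 7 of 25 rose in CD4+ and 12 of 25 in CD8+ T cells. In each lineage 3 were lower, and the medians were 0.09 and 0.24. By share of UMIs the list went down, to 0.86 and 0.85 times the saline share at 50 mg/kg. Rbfa, a small subunit assembly factor, rose by 0.77 ± 0.07 and 0.72 ± 0.07. Ngrn, which binds the mitochondrial rRNA, rose by 0.62 ± 0.09 and 0.79 ± 0.08. Mettl15, an rRNA methyltransferase, fell by 0.66 ± 0.18 and by 0.72 ± 0.15.

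Of 15 mitochondrial translation factors tested, 5 rose and 4 fell in each lineage, which is near the share of all genes. By share of UMIs this list went to 0.80 times the saline share in CD4+ and 0.78 times in CD8+ T cells at 50 mg/kg. Slirp, which binds mitochondrial mRNA, rose from 26.6, 27.1 and 26.4 to 57.7, 61.1 and 55.8 CPM in CD4+ T cells (log2 change 1.12 ± 0.08), and its binding partner Lrpprc fell from 40.2, 44.8 and 40.9 to 19.1, 18.9 and 18.2 CPM (-1.17 ± 0.09). The same genes changed by 1.25 ± 0.07 and -1.23 ± 0.10 in CD8+ T cells. Other translation factors also went both ways. Tufm and Tsfm rose by 0.31 and 0.46 in CD4+ T cells, whereas Gfm1 and Gfm2 fell by 0.43 and 0.83, and these were named after their values were seen.

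Mitochondrial aminoacyl-tRNA synthetases, which charge the tRNAs, had 3 of 17 genes higher and 6 lower in CD4+ and 3 higher and 5 lower in CD8+ T cells. Lars2, the leucyl-tRNA synthetase, rose by 0.69 ± 0.05 and 0.85 ± 0.04, unlike the synthetases as a list. Their summed share of UMIs was 0.96 times the saline share in both lineages. Of 10 genes for mitochondrial transcription, 2 rose and 1 fell in each lineage, and their summed share was 0.89 and 0.81 times the saline share. Ssbp1, which binds single-stranded mitochondrial DNA, rose by 0.70 ± 0.06 and 0.72 ± 0.06, Tfb2m, a mitochondrial transcription factor, fell by 0.30 ± 0.11 in CD4+ T cells, and Polg2, the accessory subunit of the mitochondrial DNA polymerase, fell by 0.43 ± 0.15 in CD8+ T cells.

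The templates that the ribosome translates are the 13 mRNAs of the mitochondrial genome. Of these, 8 rose and 1 fell in CD4+ T cells at 50 mg/kg, and in CD8+ T cells 7 rose and 4 fell, with medians of 0.24 and 0.09. These calls are under TMM scaling, and the share of all UMIs gave another picture. In CD4+ T cells the 13 mRNAs made up 1.75% to 1.86% of UMIs in the saline pools and 1.64% to 1.79% at 50 mg/kg. The means were 1.81% and 1.71%, so by share these mRNAs were not higher at the high dose. mt-Co3, a subunit of complex IV, rose by 0.67 ± 0.03 and 0.55 ± 0.03. mt-Nd6, a subunit of complex I and the sole one of these mRNAs read from the other strand, fell from 35.8, 42.1 and 40.1 to 24.5, 29.2 and 28.1 CPM in CD4+ and from 40.6, 43.1 and 37.1 to 23.3, 24.3 and 23.0 CPM in CD8+ T cells.

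Nuclear subunits of complex I, which assemble with proteins made by that ribosome, were mostly higher. In CD4+ T cells 35 of 36 rose and none fell, and in CD8+ T cells 35 rose and 1 fell, with medians of 0.95 and 1.13. Ndufa1 had the largest rise, 1.32 ± 0.05 and 1.65 ± 0.05, and Ndufs1, a core iron-sulfur subunit, fell by 0.23 ± 0.06 in CD8+ T cells. All 77 cytosolic ribosomal protein genes rose in both lineages, by a median of 0.92 and 1.26. Rps7 led in CD4+ T cells at 1.29 ± 0.03 and Rpl41 in CD8+ T cells at 1.67 ± 0.04.

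Of 8 regulators of mitochondrial biogenesis tested, 2 rose and 6 fell in CD4+ T cells, and 2 rose and 4 fell in CD8+ T cells, the latter near the share of all genes. Gabpa, a subunit of the ETS factor that binds promoters of many mitochondrial genes, fell from 42.1, 51.6 and 43.2 to 26.0, 23.7 and 23.9 CPM in CD4+ T cells and from 55.0, 55.5 and 46.8 to 26.1, 21.1 and 25.4 CPM in CD8+ T cells. Esrra, an orphan nuclear receptor, rose by 0.41 ± 0.11 and 0.54 ± 0.10.

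**Figure D4:**
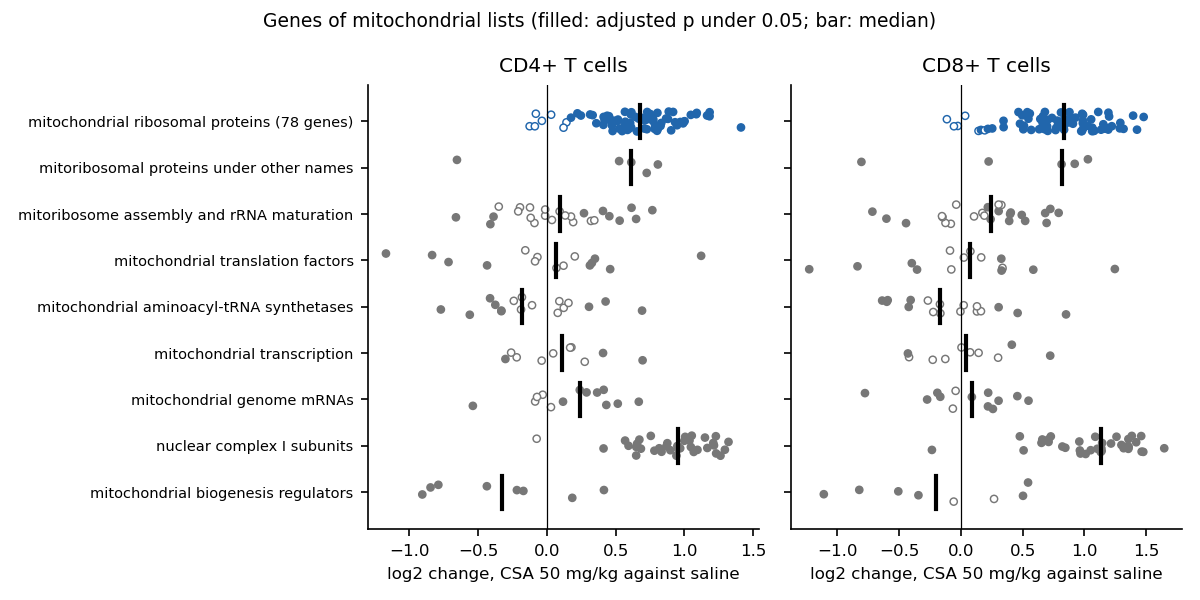
Log2 change at 50 mg/kg against saline (x axis) for the 78 genes and for genes of the related mitochondrial lists (rows), with 1 point per gene, filled where the adjusted p is under 0.05, and a bar at the median. The cytosolic ribosomal protein genes are not drawn. The 78 genes, with medians of 0.68 and 0.84, and complex I lie to the right of 0, while the factors, synthetases and regulators spread to both sides.

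Transcript length moved with the change over all genes. Length classes were cut at the quartiles of the members, so for all genes the shortest class has no lower and the longest no upper limit. For members with transcripts of 418 to 918 bases, the median log2 change at 50 mg/kg was 0.85 in CD4+ and 1.10 in CD8+ T cells. All tested genes of that class had medians of 0.81 and 0.99. In the class of 923 to 1288 bases the members had 0.73 and 0.79 and all genes 0.64 and 0.72. Members of these classes stood close to the other genes of their class.

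The longer members stood further from their length class. Members of 1316 to 2572 bases had medians of 0.47 and 0.56, against 0.29 and 0.32 for all genes. Those of 2596 to 7300 bases had medians of 0.59 and 0.81, against -0.37 and -0.39 for all genes of the longest class. In CD4+ T cells 19 of these 20 members rose, where 15.6% of all genes of that class did. That class can also hold transcripts longer than those of the members, so its values are not for genes of the same lengths. In CD8+ T cells 18 of the 20 rose, against 17.0%. These are descriptions over annotated lengths, and the part of transcript length in the change was not tested.

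**Figure D5:**
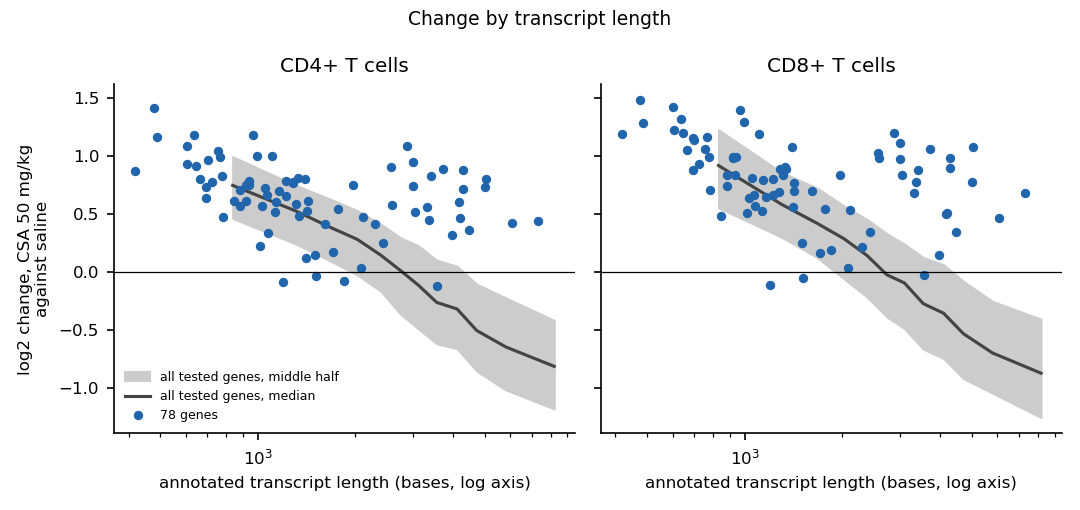
Log2 change at 50 mg/kg against saline (y axis) by annotated transcript length in bases (x axis, log scale): the 78 genes as points, and the median and interquartile band of all tested genes in 12 length classes. The line for all genes crosses 0 and goes negative with length, while members of 2596 to 7300 bases keep medians of 0.59 and 0.81.

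The genes lie on 17 chromosomes, with 11 on chromosome 11, which holds the most. The annotation lists 5 pseudogenes named after 3 of the members, whose reads the counting could have split, so the values of those members are less certain. A protein-coding gene on the opposite strand starts within the 1000 bases upstream of 18 of the 78 genes (23.1%), against 11.5% of 10392 tested protein-coding genes. Pairs that overlap at their starts, such as Mrpl46 and Mrps11, were not counted. In CD4+ T cells 5 of 16 such neighbours tested rose and 6 fell, with a median of 0.04 where the members beside them had 0.68. In CD8+ T cells 7 rose and 6 fell, with 0.11 beside 0.81. Over all genes tested, 34.7% rose and 35.8% fell in CD4+ and 37.1% and 36.9% in CD8+ T cells. The neighbours thus lay near the share of all genes.

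Pairs went both ways, and the following were picked after their values were seen. Fau, which encodes a cytosolic ribosomal protein fused to a ubiquitin-like one, starts 59 bases from Mrpl49 and rose by 1.13 and 1.47. Psma2, a proteasome subunit, starts 75 bases from Mrpl32 and rose by 0.81 and 0.86. Helq, a DNA helicase that starts 29 bases from Mrps18c, fell by 0.53 and by 1.07 while Mrps18c rose by 1.18 and 1.32. Ncapd2, a condensin subunit used in mitosis, starts 100 bases from Mrpl51 and fell by 0.41 and by 0.88.

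Promoter windows were available for 69 of the 78 genes, 75 windows in all of 250 bases before and 50 after the start (RefSeq, GRCm38.p6). Letters of the sites of factors that govern mitochondrial genes were searched on both strands. GCATGCGC, for NRF1, was in 10.7% of the members' windows and 2.71% of all 32851 windows. CCGGAAGT, for GABP and other ETS factors, was in 16.0% against 3.89%, and AAGATGGC, for YY1, in 16.0% against 2.75%. At least 1 of the 3 was in 38.7% against 8.83%. By contrast CACGTG, the E-box that Myc binds, was in 9.33% against 7.15%, and TGGAAA, the core of NFAT sites, in 18.7% against 21.4%.

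Members with the GABP letters had medians of 0.81 in CD4+ and 0.94 in CD8+ T cells, and those without had 0.64 and 0.84. Members with the NRF1 letters had 0.43 and 0.69, and those without had 0.71 and 0.84. A match is a description of the sequence and not a bound site.

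The 250 bases before the start are printed below for the genes with the largest rises in CD4+ T cells, Mrpl33 and Mrpl30, and for Mrps22 and Mrps27, which were called in neither lineage, to set windows of both kinds side by side. Capitals mark a match. Mrpl33 (chr5:31613701-31613950, + strand) holds the NRF1 letters on the reverse strand 12 to 5 bases before the start, Mrpl30 (chr1:37890227-37890476, + strand) holds none of the 5 motifs, Mrps22 (chr9:98601680-98601929, - strand) holds the GABP letters 11 to 4 bases before the start, and Mrps27 (chr13:99344536-99344785, + strand) holds them on the reverse strand 49 to 42 bases before it. These positions are for the printed bases only. Over the full windows, which also take in bases after the start, Mrpl33 also held the GABP letters. Mrps27 also held the YY1 letters there. Both kinds of gene thus hold a window with a match, and the GABP letters occur in both kinds.
Mrpl33: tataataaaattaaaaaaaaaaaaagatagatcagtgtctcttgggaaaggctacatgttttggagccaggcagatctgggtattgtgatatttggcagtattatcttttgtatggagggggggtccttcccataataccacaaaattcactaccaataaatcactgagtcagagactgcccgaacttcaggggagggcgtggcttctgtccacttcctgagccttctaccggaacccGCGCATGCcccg
Mrpl30: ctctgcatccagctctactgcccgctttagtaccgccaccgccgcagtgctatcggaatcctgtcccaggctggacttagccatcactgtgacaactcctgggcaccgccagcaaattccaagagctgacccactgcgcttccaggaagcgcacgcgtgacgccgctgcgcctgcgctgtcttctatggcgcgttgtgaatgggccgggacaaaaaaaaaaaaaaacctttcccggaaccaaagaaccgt
Mrps22: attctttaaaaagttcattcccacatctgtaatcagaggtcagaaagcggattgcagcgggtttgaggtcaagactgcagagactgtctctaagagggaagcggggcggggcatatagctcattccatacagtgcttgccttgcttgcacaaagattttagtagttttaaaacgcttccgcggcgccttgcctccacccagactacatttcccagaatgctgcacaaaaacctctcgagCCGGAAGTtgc
Mrps27: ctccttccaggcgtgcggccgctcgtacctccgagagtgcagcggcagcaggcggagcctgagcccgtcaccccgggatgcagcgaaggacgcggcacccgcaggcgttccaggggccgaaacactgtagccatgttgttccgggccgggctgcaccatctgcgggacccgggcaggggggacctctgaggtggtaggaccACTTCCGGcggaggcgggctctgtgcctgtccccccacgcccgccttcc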

How the data were processed

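Mouse CD4+ and CD8+ T cells of 9 hashtagged pools (3 saline, 3 CSA 5 mg/kg, 3 CSA 50 mg/kg) were profiled in 3 droplet captures of 5′ RNA with surface antibodies. Reads were aligned to mm10 with Cell Ranger (version not given in the sources used here), and the authors deposited raw UMI counts per gene and cell, antibody counts, hashtag calls, clusters made with Seurat 3.0.0 and the mitochondrial fraction per cell. The mitochondrial fraction was not used for any result. CD8+ clusters were matched to their names by their markers. The deposited cell tables mark no cell as a doublet or as dead, so doublets were taken as removed by the authors and no doublet caller was run. UMI counts were summed per pool and lineage, leaving out TEa cells. Genes passing filterByExpr were tested with edgeR 4.0.16 (glmQLFit and glmQLFTest, TMM, R 4.3.3) over all 9 pools of a lineage, with Benjamini-Hochberg adjustment over all genes and a threshold of 0.05. Lineages were compared with the pool as a block, and clusters in pools of at least 10 cells. CPM values of single genes are TMM-scaled, and those of summed marker lists are not. Shares of UMIs are percentages. Both doses are compared with the same saline pools, so those comparisons are not independent.

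In simulated counts with 200 changed genes, the fit recovered 86.5% for the CD4+ comparison at 50 mg/kg (10568 genes) and 87.5% for the CD8+ comparison (10841 genes). The simulated rises had median estimated log2 changes of 0.99 and 1.02, and 7 and 11 unchanged genes were called. Smaller changes, and data in which most genes change, were not simulated, so these rates do not carry over to the members or to the choice of scaling. Alternatives were DESeq2 1.42.0, library size scaling, no filter on low counts, 2 groups per fit, the replicate block, TEa cells kept, cycling clusters left out, cells of 4000 to 8000 UMIs, and each pool left out. Members and gene lists were chosen with earlier results of these data known. Named members were the 6 largest rises and falls per lineage at 50 mg/kg with no overlap of pools and at least 10 CPM, the 6 largest differences between lineages, the 5 with most UMIs, landmarks by role, and from each related list the largest called rise and fall. Transcript lengths and positions are from GENCODE vM21.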

Additional observations from a re-analysis of the deposited data

Results flagged for a closer look

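The change at 50 mg/kg differed between the lineages in 17 of the 78 genes, by the lineage by treatment term in edgeR, and was larger in CD8+ T cells for each of them. The difference of the log2 changes was 0.41 for Mrpl38, 0.39 for Mrpl23, 0.38 for Mrpl58, 0.37 for Mrpl24, 0.34 for Mrps34, 0.31 for Mrpl54, 0.29 for Mrpl11, 0.26 for Mrps24 and 0.22 for Mrpl12. The term differed in 9.33% of all genes in this direction and in 10.4% in the other.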

How the results depend on the processing

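Under library size scaling, 37 members rose and 7 fell under the low dose, 45 and 9 under the high dose and 21 and 3 between the doses in CD4+ T cells. In CD8+ T cells 8 and 10 fell at the 2 doses, and 15 rose and 9 fell between the doses. Calls over all clusters then came to 84 higher and 19 lower in CD4+ and 143 higher and 17 lower in CD8+ T cells. The lineage term then called 8 members more positive and 1 more negative. For the counts of this paragraph the shares of all genes called are not given here. The same scaling turned Mrpl38 (-0.025 at 5 and -0.32 at 50 mg/kg in CD4+, -0.11 at 5 mg/kg in CD8+), Mrpl10 (-0.21 and -0.26 in CD4+, -0.29 and -0.37 in CD8+), Mrps18b (-0.037 and -0.11 in CD4+) and Mrpl45 (-0.19 at 50 mg/kg in CD4+, -0.077 and -0.19 in CD8+). In cells of 4000 to 8000 UMIs, 1 member fell at 50 mg/kg in CD4+ T cells, 8 rose and 3 fell between the doses in CD4+ and 22 rose in CD8+ T cells, the lineage term called 6, 2 were higher in CD8+ T cells in saline, and Mrpl45 in CD4+ and Mrpl10 in CD8+ T cells turned to -0.079 and -0.081 at 50 mg/kg. Without the cycling clusters, 2 fell between the doses in CD4+ T cells, 19 rose and 2 fell in CD8+ T cells, and the lineage term called 2. DESeq2 called 2 by the lineage term and 1 higher in CD8+ T cells in saline. The share of UMIs without cycling clusters and in cells of 4000 to 8000 UMIs was 0.564% and 0.564% in saline and 0.684% and 0.680% at 50 mg/kg in CD4+ T cells, and 0.554% and 0.541%, 0.671% and 0.677%, and 0.692% and 0.691% over the 3 groups in CD8+ T cells. With each pool left out in turn, 1 to 2 members fell between the doses in either lineage and the lineage term called 9 to 17. The cause of these moves was not tested. The replicate block called 2 lower between the doses in CD8+ T cells and moved no other count of calls by over 1.5 times, and same-numbered pools, whose deviations correlated between -0.09 and 0.07, share only a number. The number of mice limits the precision, and the capture and the treatment cannot be told apart.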
